A study of Mus musculus with 8 samples.

Results

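The collagen hydroxylation, folding and crosslinking enzymes described here are 10 genes of the 52325 gene identifiers listed in each library. They comprise the lysyl hydroxylases *Plod1*, *Plod2* and *Plod3*, the prolyl 4-hydroxylase subunits *P4ha1*, *P4ha2* and *P4hb*, the collagen chaperone *Serpinh1*, the collagen galactosyltransferase *Colgalt1*, and the lysyl oxidases *Lox* and *Loxl2*. The genes were chosen from measured values of the same genotype contrast, so their differences between genotypes are given as a description, without p-values. Each symbol matched 1 identifier, and all 10 were among the 17177 genes tested, those that reached 0.5 TPM in 4 or more libraries.

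RNA was from costal chondrocytes that collagenase had freed from the ribs of mice aged 7 d, with 4 libraries labelled wild-type and 4 labelled *Mir140*-null. Both genotypes had the C57BL/6J background. In the null line CRISPR/Cas9 had removed the *Mir140* locus, which encodes miR-140-5p and miR-140-3p; founders of mixed C57BL/6 and CBA/ca origin were backcrossed, and crosses of heterozygotes gave separate wild-type and null lines. The comparison asks what changes in cartilage cells that lack every product of this locus. The cells were not sorted, the lines differ in descent as well as in genotype, and the labels do not state which animals a library came from or their sex, so the p-values given for other genes measure the spread between these libraries only. Values are in TPM (transcripts per 1000000), which are scaled to the same total in every library and to transcript length, and carry no read counts. The reads behind each value therefore cannot be read from it, and levels can be compared between genes.

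Collagen chains are modified while they are still unfolded in the endoplasmic reticulum. Prolyl 4-hydroxylase, a complex of a catalytic alpha subunit and protein disulfide isomerase (the product of *P4hb*), stabilises the triple helix, lysyl hydroxylases modify lysines of the helix and of the telopeptides, and some hydroxylysines then receive sugars. HSP47, encoded by *Serpinh1*, binds the folded helix on its way out of the cell. Outside the cell, lysyl oxidases convert lysines and hydroxylysines into aldehydes that form the crosslinks, and in cartilage the main substrate is type II collagen with types IX and XI.

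The library labels could not be checked on the deleted gene. *Mir140* itself had 8.86 TPM in 1 library, labelled *Mir140*-null replicate 2, against the label, and 0 in the 7 others, among them every wild-type library. The annotated *Mir140* gene has 70 bases, and in that library the lowest value above 0 among the 40 other microRNA genes of this length was 17.6 TPM, so the 8.86 TPM may stand for less than 1 whole read. Its host gene *Wwp2* ranged from 332 to 459 TPM in wild-type libraries and from 261 to 394 TPM in the null group. Neither gene tells the genotypes apart, so the groups follow the labels here, and the study's own assays of genotype and of miR-140 were not analysed.

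A pair of libraries stood apart before any enzyme was considered. Markers of connective tissue fibroblasts (7 genes) summed to 587 TPM in *Mir140*-null replicate 1 and to 741 TPM in replicate 2, against 5280 and 3843 TPM in replicates 3 and 4 and 3092 to 5915 TPM in wild-type. Not every marker followed the sum, since *Pdgfra* had 34.5 and 36.5 TPM in *Mir140*-null replicates 1 and 2. It had 31.5 and 34.3 TPM in replicates 3 and 4, and 11.8 to 19.8 TPM in wild-type. *Mir140*-null replicates 1 and 2 listed 15800 and 16056 genes at 0.5 TPM or more, against 16991 to 17950 in the other 6. Genes encoded by mitochondrial DNA took 8.41% to 10.1% of the TPM in *Mir140*-null libraries and 4.06% to 6.99% in wild-type. Their part in the differences described below was not tested, and differences of the enzymes and of called genes of the lists are given with all 8 libraries and also with *Mir140*-null replicates 3 and 4 alone against wild-type, a comparison added after the data were seen. In such bulk samples, fewer cells of a type and less RNA per cell cannot be told apart.

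**Figure D1:**
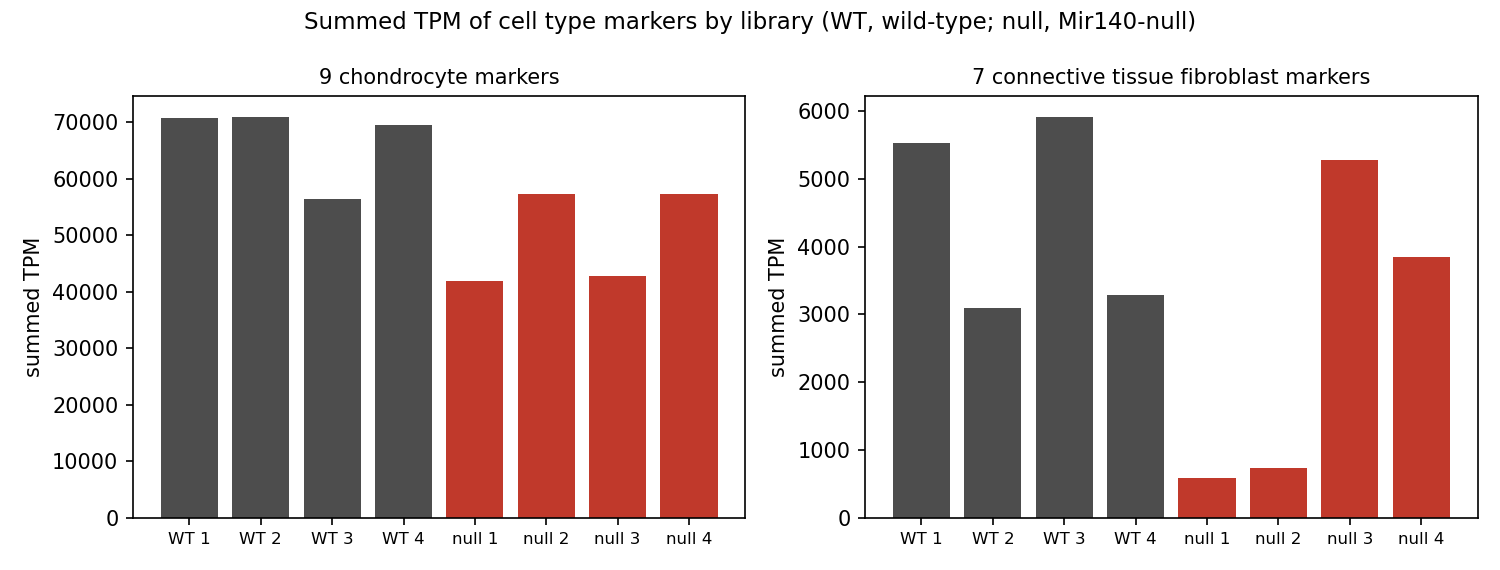
Summed TPM (vertical axis) of 9 chondrocyte markers and of 7 connective tissue fibroblast markers in each of the 4 wild-type and 4 Mir140-null libraries. The fibroblast sum was 587 TPM and 741 TPM in Mir140-null replicates 1 and 2 and at least 3092 TPM in the other 6 libraries.

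In wild-type chondrocytes *P4hb* (1076 ± 55.4 TPM, SD, n = 4) and *Serpinh1* (1068 ± 144 TPM) had the highest levels of the 10 genes, each above 99.4% of the 13118 protein-coding genes tested. Next came *P4ha2* (195 ± 35.2 TPM), *Plod2* (179 ± 28.4 TPM) and *P4ha1* (148 ± 7.17 TPM), followed by *Plod3* (76.4 ± 9.59 TPM) and *Loxl2* (52.5 ± 6.53 TPM). *Colgalt1* (34.3 ± 3.14 TPM), *Plod1* (31.9 ± 2.86 TPM) and *Lox* (28.4 ± 2.54 TPM) were lowest, with *Lox* still above 80.3% of those genes. Neighbours in this order whose wild-type ranges overlapped were *P4hb* and *Serpinh1*; *P4ha2*, *Plod2* and *P4ha1*; and *Colgalt1*, *Plod1* and *Lox*. In every wild-type library *P4ha2* was nonetheless above *Plod2*, and *Plod2* above *P4ha1*.

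A gene was called different where limma gave a Benjamini-Hochberg adjusted p under 0.05 over all genes tested. Among the 10 enzymes, *Plod1*, *Plod3* and *Lox* (3 genes) were called higher in *Mir140*-null libraries, where 10.5% of all genes tested were, and *P4hb* (1 gene) was called lower, where 6.40% of all genes were. The other 6 were not called. All 4 *Mir140*-null libraries were above all 4 wild-type libraries for the same 3 genes (15.7% of all genes tested) and below them for *P4hb* (10.2% of all genes tested). Because this contrast chose the genes, nothing is read from these counts. The median log2 fold change of the 10 was -0.06, and that of all genes tested was -0.01. Over all genes, 1797 were called higher and 1100 lower, a split that turned to 1293 and 1464 after median-ratio scaling between libraries. These totals were 1007 and 565 without wild-type replicate 1, 1252 and 575 without wild-type replicate 2, 792 and 372 without wild-type replicate 3, and 862 and 337 without wild-type replicate 4. They were 1110.0 and 598 without *Mir140*-null replicate 1 and 755 and 428 without *Mir140*-null replicate 2. *P4hb* was not called, leaving 0 enzymes lower, without wild-type replicate 1, 2 or 4 or *Mir140*-null replicate 2.

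**Figure D2:**
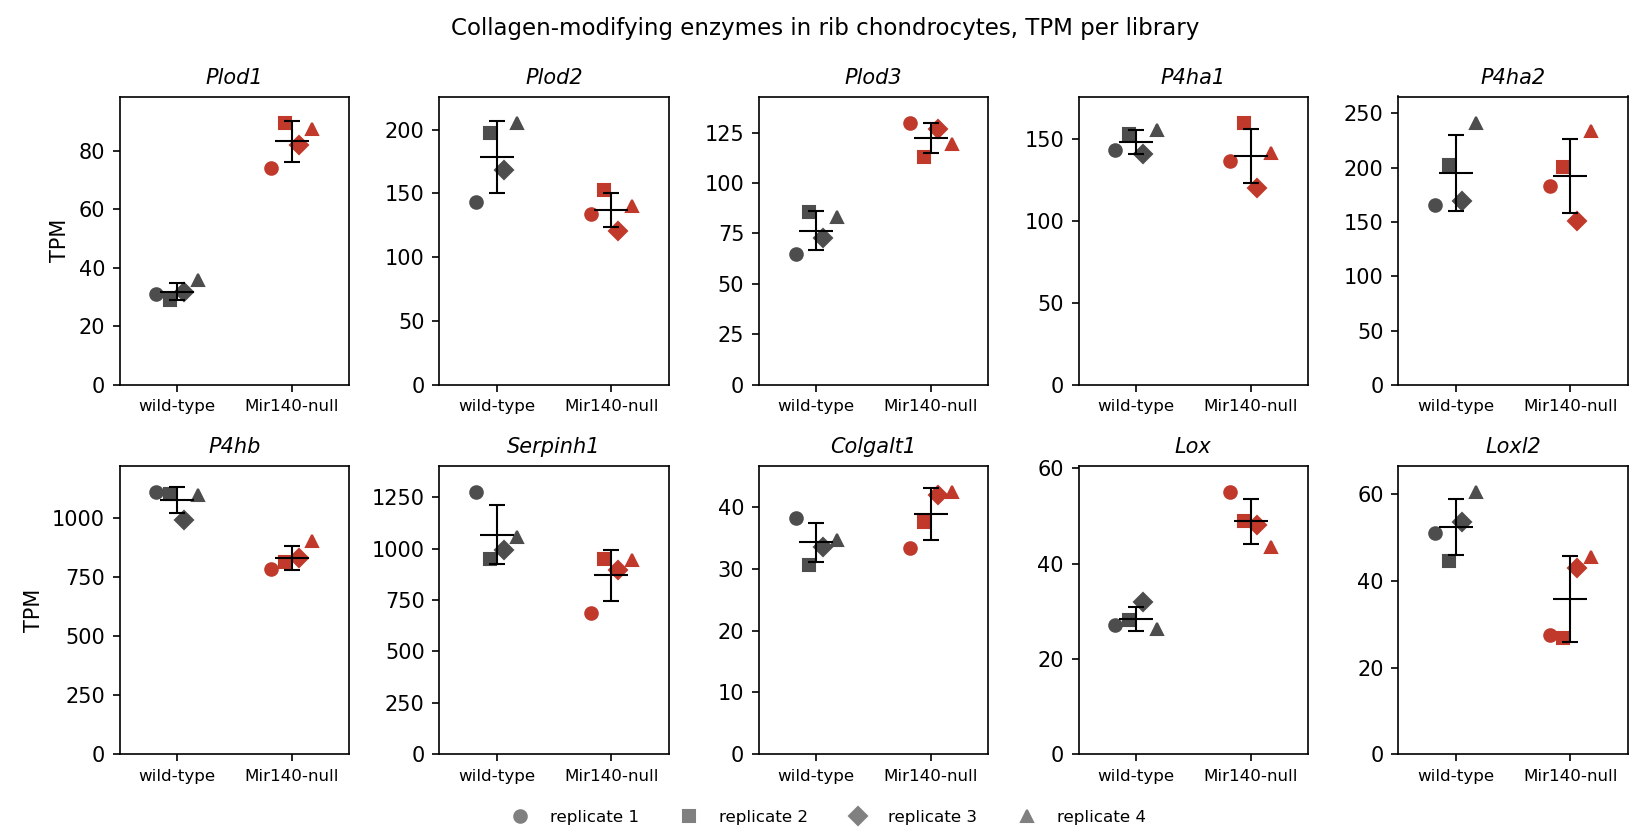
TPM of each enzyme (vertical axes, each from 0) in 4 wild-type (grey) and 4 Mir140-null (red) libraries, with replicates marked by symbol and black bars for the mean and SD. Plod1, Plod3 and Lox were higher in every Mir140-null library than in any wild-type library, P4hb was lower, and the other 6 enzymes overlapped.

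*Plod1* encodes lysyl hydroxylase 1, which acts mainly on lysines of the triple helix. The gene (ENSMUSG00000019055) lies on the minus strand of chromosome 4 of the mm10 build, between 147909753 and 147936767. In the 4 wild-type replicates it stood at 31.1, 29.1, 31.6 and 35.9 TPM, and in the 4 *Mir140*-null replicates at 74.1, 89.6, 81.8 and 87.3 TPM. Every null library lay above every wild-type library, with a gap between the groups wider than the range of either. The mean of 83.2 ± 6.90 TPM in null libraries was 2.61-fold the wild-type mean of 31.9 ± 2.86 TPM (SD, n = 4), and the log2 fold change of TPM + 1 was 1.36 ± 0.11 (SE). It was 1.38 with *Mir140*-null replicates 3 and 4 alone, and the part of the cell mixture in this difference was not tested.

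*Plod1* is on the study's list of predicted miR-140-5p targets, a prediction made for human genes, so matches to the seeds of the deleted microRNAs were searched in its 3′ untranslated region. The mature product of *Mir140* in the RefSeq table used here (build GRCm38.p6) is mmu-miR-140-3p, at chr8:107551288-107551308 on the plus strand, printed below with its seed, bases 2 to 8, in capitals.
mmu-miR-140-3p: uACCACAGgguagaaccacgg
The seed of miR-140-5p, AGUGGUU, was read from the RefSeq hairpin. The isomiR with the canonical start is called miR-140-3p.2, and miR-140-3p.1 starts 1 base later and has the seed CCACAGG. Sites were matches to bases 2 to 8 (7m8: AACCACT for miR-140-5p, CTGTGGT for miR-140-3p.2, CCTGTGG for miR-140-3p.1), the same followed by A (8mer), or the last 6 bases of the match followed by A (7a1). They were searched in the transcript strand of the longest annotated 3′ untranslated region, and an 8mer was counted once. Sites of the 2 miR-140-3p isomiRs can share bases.

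The *Plod1* region has 966 bases and held 2 matches of the 7m8 site of miR-140-5p, from base 43 (chr4:147910670-147910676) and from base 654 (chr4:147910059-147910065). Both are shown 5′ to 3′ on the minus strand with the match in capitals.
*Plod1* base 43: tcatcgttgacAACCACTgcccagcagcc
*Plod1* base 654: aatgtcgttcaAACCACTgtatgagagat
Of the 1341 genes with a region within 10% of this length, 8.65% held at least 1 miR-140-5p site and 0.298% held at least 2. The *Plod1* region held no site of either miR-140-3p isomiR. Such matches are a description of the sequence, and binding was not measured.

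*Plod3* encodes lysyl hydroxylase 3, which also has the glycosyltransferase activity that adds sugars to hydroxylysine. It lies on the plus strand of chromosome 5 (ENSMUSG00000004846, 136987019 to 136996648). Wild-type replicates 1 to 4 had 64.7, 85.4, 72.6 and 83.0 TPM of *Plod3*, and *Mir140*-null replicates 129.9, 113, 127 and 119 TPM. The groups did not overlap, and the lowest null library (replicate 2) was above the highest wild-type library (replicate 2). The null mean of 122 ± 7.53 TPM was 1.60-fold the wild-type mean of 76.4 ± 9.59 TPM, with a log2 fold change of 0.68 ± 0.11 (SE). With *Mir140*-null replicates 3 and 4 alone it was 0.69, though the gene was then not called. The region of 387 bases after its stop codon held no site of the 3 microRNAs. *Plod3* overlaps *Znhit1* on the opposite strand (6.88 TPM on average), and the libraries were stranded, but the strand setting of the quantification is not given in the sources used here.

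*Plod2* encodes lysyl hydroxylase 2, the enzyme known for hydroxylating telopeptide lysines, which sets the chemistry of the crosslinks. Its gene (ENSMUSG00000032374) occupies 92542223 to 92608428 on the plus strand of chromosome 9. The level of *Plod2* was 143, 197, 168 and 205 TPM in wild-type replicates 1 to 4, and 134, 152, 120.2 and 140.4 TPM in *Mir140*-null replicates. The groups overlapped, since wild-type replicate 1 lay below *Mir140*-null replicate 2. The means were 179 ± 28.4 and 137 ± 13.5 TPM, and the log2 fold change of -0.37 ± 0.14 (SE) was not called. It was -0.44 with *Mir140*-null replicates 3 and 4 alone and between -0.47 and -0.30 with each library left out in turn, and it was called after quantile normalization (-0.54). The 1198 bases of its 3′ untranslated region held no site of the 3 microRNAs.

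The 3 lysyl hydroxylases differed between genotypes in their shares, while in level only *Plod1* and *Plod3* were called. *Plod2* made up 59.9%, 63.3%, 61.8% and 63.3% of their summed TPM in wild-type replicates 1 to 4 and 39.6%, 42.9%, 36.6% and 40.5% in the null replicates. *Plod1* went from 11.2 ± 1.52% to 24.3 ± 1.59% of the sum and *Plod3* from 26.7 ± 0.775% to 35.8 ± 3.27% (mean ± SD, n = 4). None of these 3 shares overlapped between genotypes. They are parts of the same sum, so a rise of *Plod1* and *Plod3* lowers the *Plod2* share at any level of *Plod2*. Because this contrast chose the genes, nothing is read from the lack of overlap. The ratio of *Plod2* to *Plod1* was 4.61, 6.79, 5.33 and 5.72 in wild-type libraries and 1.81, 1.70, 1.47 and 1.61 in null libraries. A ratio within a library does not depend on the scaling of that library. The summed TPM of the family was 287 ± 38.8 in wild-type and 342 ± 11.5 in *Mir140*-null libraries.

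**Figure D3:**
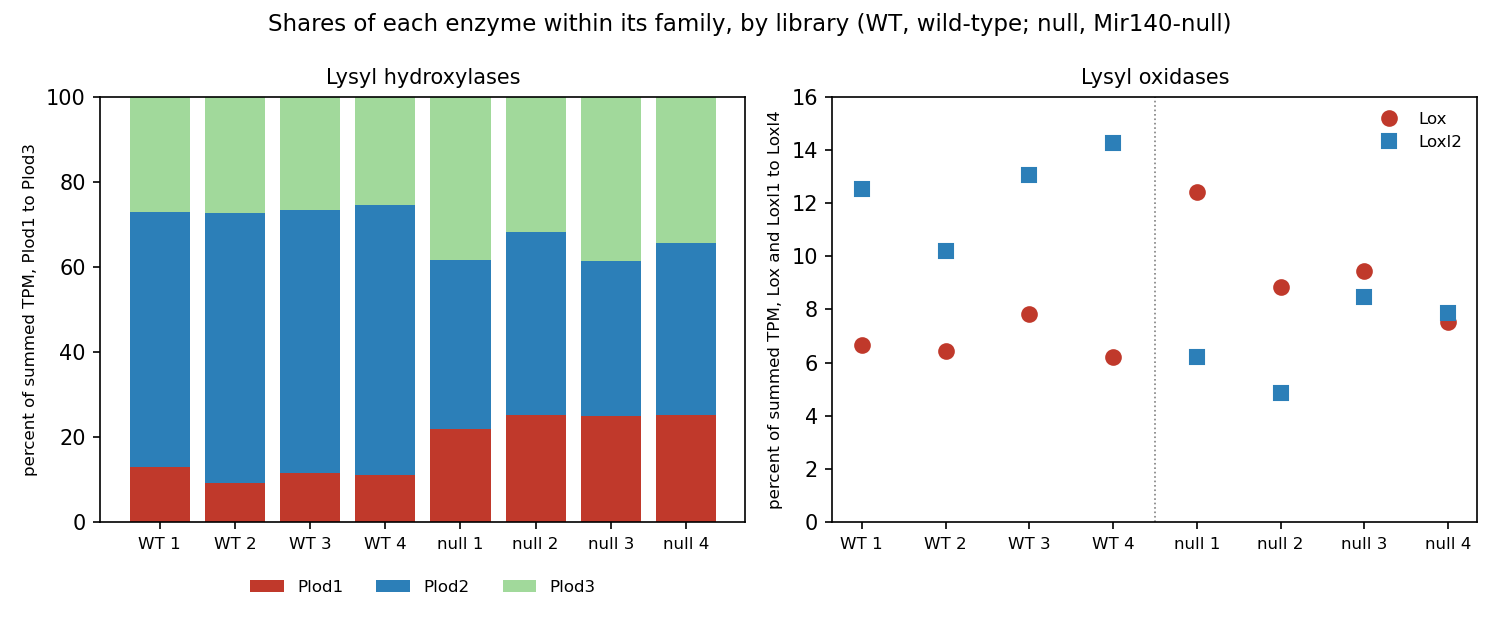
Percent of the summed TPM of Plod1, Plod2 and Plod3 taken by each gene (left, stacked bars), and percent of the summed TPM of Lox and Loxl1 to Loxl4 taken by Lox and Loxl2 (right, points), in each library. The Plod2 share was 59.9% to 63.3% in wild-type and 36.6% to 42.9% in Mir140-null libraries.

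The genes most like *Plod1* over the 8 libraries were found by the root mean square difference of log2(TPM + 1) after each gene's mean was removed, among 9658 other genes with a mean of at least 5 TPM. They were *Ccl2* (difference 0.12), a chemokine, *Rap1b* (0.15), a small GTPase, and *Adamtsl4* (0.15), a secreted ADAMTS-like protein. Their wild-type and null means were 55.4 ± 6.66 and 132 ± 13.5 TPM for *Ccl2*, 99.9 ± 8.45 and 262 ± 30.7 TPM for *Rap1b*, and 31.7 ± 2.66 and 77.8 ± 7.27 TPM for *Adamtsl4*. For *Plod2* the 3 most alike were *Slc16a3* (0.08), a lactate transporter, *Ppat* (0.09), an enzyme of purine synthesis, and *Gm49759* (0.09), all at a mean of 4.85 to 9.35 TPM in either genotype. These are likenesses of profile over 8 libraries and carry no test.

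The catalytic subunits of prolyl 4-hydroxylase, *P4ha1* and *P4ha2*, were close between genotypes. *P4ha1*, on the plus strand of chromosome 10 (ENSMUSG00000019916, 59323296 to 59373304), had 143, 153, 141 and 156 TPM in the wild-type replicates, against 137, 160.2, 120.2 and 141 TPM in the null replicates. The null range enclosed the wild-type range. Its log2 fold change was -0.09 ± 0.10 (SE), and -0.18 with *Mir140*-null replicates 3 and 4 alone. *P4ha2*, on the plus strand of chromosome 11 (ENSMUSG00000018906, 54100095 to 54131665), had 166, 203, 169.8 and 241 TPM in the wild-type replicates, against 183, 201, 151 and 234 TPM in null libraries. Replicate 4 was highest in both groups, and the log2 fold change was -0.02 ± 0.17 (SE), -0.03 with *Mir140*-null replicates 3 and 4 alone, and between -0.12 and 0.09 with each library left out in turn. *P4ha2* took 55.0 ± 3.29% of the summed TPM of *P4ha1*, *P4ha2* and *P4ha3* in wild-type and 56.1 ± 3.32% in null libraries.

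*P4ha1* is on the study's list of predicted miR-140-3p.1 targets, and its sequence is shown for comparison with that of *Plod1*. Its 3′ untranslated region of 2230 bases held an 8mer of miR-140-3p.1 from base 130 (chr10:59371204-59371211), a 7m8 site of the same microRNA from base 378 (chr10:59371452-59371458) and a 7a1 site of miR-140-3p.2 from base 895 (chr10:59371969-59371975), with the matches in capitals on the plus strand.
*P4ha1* base 130: cccatgtctcaCCTGTGGAcaatcacttat
*P4ha1* base 378: ggcgagcagagCCTGTGGgcttacagacg
*P4ha1* base 895: aaaagtctctgTGTGGTAttttcatgttt
Among the 1360 genes with regions of about this length, 41.5% held a miR-140-3p.1 site. The matches of *P4ha1* were of miR-140-3p isomiRs, whereas those of *Plod1* were of miR-140-5p. Whether sites go with differences between genotypes was not tested. Over the 10 enzymes, 2 held a miR-140-5p site (*Plod1* and *Loxl2*), 3 a miR-140-3p.1 site (*P4ha1*, *P4hb* and *Lox*) and 3 a miR-140-3p.2 site (the same 3). Of 21037 genes with an annotated region, 12.8% held a miR-140-5p site, 26.4% held a miR-140-3p.1 site and 21.6% held a miR-140-3p.2 site.

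*P4hb* encodes protein disulfide isomerase, the beta subunit of prolyl 4-hydroxylase, which also forms disulfide bonds in other proteins. It lies on the minus strand of chromosome 11 (ENSMUSG00000025130, 120560298 to 120573253). Wild-type replicates 1 to 4 had 1111, 1101, 993 and 1098 TPM, and *Mir140*-null replicates 783, 815, 833 and 904 TPM. The groups did not overlap, and wild-type replicate 3 lay below its 3 partners. The null mean (834 ± 51.0 TPM) was 0.775 times the wild-type mean (1076 ± 55.4 TPM), with a log2 fold change of -0.37 ± 0.08 (SE). This gene was not called without wild-type replicate 1 (-0.35), 2 (-0.36) or 4 (-0.36) or without *Mir140*-null replicate 2 (-0.36), and the value was -0.31, not called, with *Mir140*-null replicates 3 and 4 alone. The ratio of *P4hb* to the summed alpha subunits was 3.50, 3.02, 3.09 and 2.70 in wild-type and 2.38, 2.20, 2.95 and 2.36 in null libraries, which overlapped. Its 3′ untranslated region of 885 bases held 1 7m8 site for each of the 2 miR-140-3p isomiRs. Of genes with regions of about this length, 19.9% held a miR-140-3p.1 site and 15.7% a miR-140-3p.2 site, counting any of the 3 kinds of site.

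*Serpinh1* encodes HSP47, the chaperone specific to the collagen helix. The gene (ENSMUSG00000070436) is on the minus strand of chromosome 7, between 99345376 and 99353239. It had 1275, 949.6, 992 and 1056 TPM in wild-type replicates 1 to 4, and 687, 951, 896 and 945 TPM in *Mir140*-null replicates. Wild-type replicate 1 was the highest library and *Mir140*-null replicate 1 the lowest, and the remaining 6 lay between 896 and 1056 TPM. The log2 fold change was -0.30 ± 0.14 (SE), -0.21 with *Mir140*-null replicates 3 and 4 alone, and -0.19 without *Mir140*-null replicate 1. Per 1000 TPM of 18 collagen chains, *Serpinh1* had 13.1 ± 1.52 TPM in wild-type libraries, against 14.2 ± 1.38 TPM in null libraries.

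*Colgalt1* encodes the galactosyltransferase that adds galactose to hydroxylysine. On the plus strand of chromosome 8 (ENSMUSG00000034807, 71610998 to 71624911), it had 38.2, 30.6, 33.6 and 34.7 TPM in the wild-type replicates, against 33.4, 37.6, 41.9 and 42.4 TPM in the null replicates. The groups overlapped, since wild-type replicate 1 lay above *Mir140*-null replicates 1 and 2, and *Mir140*-null replicate 1 also below wild-type replicates 3 and 4. The log2 fold change was 0.17 ± 0.12 (SE), 0.295 with *Mir140*-null replicates 3 and 4 alone, and 0.01 after quantile normalization. Neither *Serpinh1* nor *Colgalt1* held a site of the 3 microRNAs in its 3′ untranslated region (744 and 1151 bases).

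*Lox* encodes lysyl oxidase, which starts the crosslinking of collagen and elastin outside the cell. It is on the minus strand of chromosome 18 (ENSMUSG00000024529, 52516067 to 52529867). *Lox* had the lowest wild-type level of the 10 genes, at 27.2, 28.2, 32.1 and 26.3 TPM, against 55.0, 48.9, 48.2 and 43.6 TPM in *Mir140*-null libraries. All null libraries exceeded all wild-type libraries. The null mean of 48.9 ± 4.70 TPM was 1.72-fold the wild-type mean of 28.4 ± 2.54 TPM, and the log2 fold change was 0.76 ± 0.11 (SE), or 0.67 with *Mir140*-null replicates 3 and 4 alone. *Mir140*-null replicate 1, with the lowest fibroblast marker sum, had the highest *Lox*. The 3′ untranslated region of 3160 bases held an 8mer of miR-140-3p.2 and a 7m8 site of miR-140-3p.1 that share bases. Of genes with regions of about this length, 46.0% held a miR-140-3p.2 site and 48.0% a miR-140-3p.1 site, counting any of the 3 kinds of site.

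*Loxl2* encodes a lysyl oxidase-like enzyme of the same family. Its gene (ENSMUSG00000034205) lies on the plus strand of chromosome 14, from 69609068 to 69695834. *Loxl2* stood at 51.1, 44.7, 53.6 and 60.5 TPM in wild-type replicates and at 27.6, 27.0, 43.1 and 45.5 TPM in the null replicates, in order. Both null libraries of low fibroblast marker sums were the lowest, and replicate 4 lay within the wild-type range. The log2 fold change was -0.57 ± 0.20 (SE) over all libraries and -0.23 ± 0.14 with *Mir140*-null replicates 3 and 4 alone, and the gene was called in neither. It was called after median-ratio scaling (-0.63), after quantile normalization (-0.71) and with 1 factor of unwanted variation (-0.57). It overlaps the antisense transcript *Gm27177* (3.08 TPM on average). The 2715 bases of its 3′ untranslated region held a 7a1 site of miR-140-5p, as did 25.7% of genes with regions of about this length, counting any of the 3 kinds of site.

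Within a library, the ratio of *Lox* to *Loxl2* was 0.532, 0.630, 0.598 and 0.435 in wild-type libraries and 1.99, 1.81, 1.12 and 0.957 in *Mir140*-null libraries, without overlap, and it was closest to wild-type in *Mir140*-null replicates 3 and 4. As a share of *Lox* and *Loxl1* to *Loxl4* together, *Loxl2* took 12.5 ± 1.71% in wild-type and 6.86 ± 1.63% in null libraries, and *Lox* 6.78 ± 0.714% and 9.56 ± 2.07%. The *Lox* share overlapped, since *Mir140*-null replicate 4 (7.54%) was below wild-type replicate 3 (7.81%). *Loxl4* had the highest mean of the 5 in both genotypes (174 TPM in wild-type and 247 TPM in null libraries) and was not called.

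**Figure D4:**
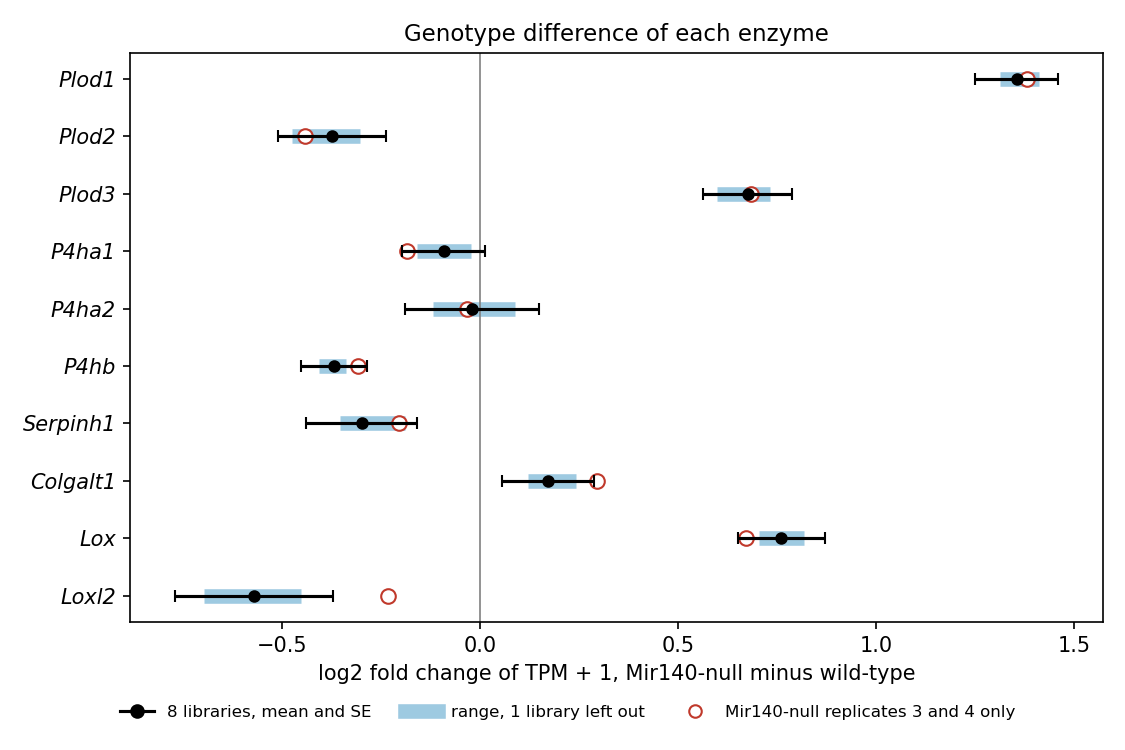
Log2 fold change of TPM + 1 (horizontal axis, Mir140-null minus wild-type) of each enzyme: black points and bars, mean and SE over 8 libraries; blue bands, range with each library left out in turn; open circles, Mir140-null replicates 3 and 4 alone against wild-type. Loxl2 moved from -0.57 to -0.23 without Mir140-null replicates 1 and 2, and Plod1 stayed between 1.31 and 1.41 with any 1 library left out.

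Set against their substrate, the enzymes split differently. The 18 collagen chains listed summed to 81944 ± 7129 TPM in the wild-type group and 61762 ± 10239.6 TPM in the null group. *Col2a1* alone had means of 57785 and 41414 TPM, so this scale mostly follows *Col2a1*. Per 1000 TPM of collagen chains, *Plod1* went from 0.392 TPM (0.342 to 0.442 by library) to 1.36 TPM (1.24 to 1.48). *Plod3* went from 0.937 ± 0.131 to 2.03 ± 0.462 TPM and *Lox* from 0.351 ± 0.0657 to 0.816 ± 0.207 TPM (mean ± SD, n = 4), all 3 without overlap. *Plod2* (2.19 ± 0.369 and 2.24 ± 0.274 TPM), *P4hb* (13.2 ± 0.512 and 13.7 ± 1.85 TPM) and *Loxl2* (0.646 ± 0.107 and 0.588 ± 0.168 TPM) overlapped on this scale. *P4ha1* (1.82 ± 0.139 and 2.29 ± 0.292 TPM) and *Colgalt1* (0.420 ± 0.0463 and 0.638 ± 0.0957 TPM) did not, while *P4ha2* (2.38 ± 0.398 and 3.13 ± 0.407 TPM) did. In plain TPM both *P4ha1* and *Colgalt1* overlapped between genotypes, and the collagen sum was lower in the null group. How many of all genes would separate on this scale was not computed, so nothing is read from the lack of overlap.

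Other genes of collagen assembly were read as lists, beside 10.5% of all genes tested called higher and 6.40% called lower. Among 8 further enzymes of hydroxylation and glycosylation, 1 was called lower in *Mir140*-null libraries and 0 higher (limma; 0 also at an unadjusted p under 0.05), with a median log2 fold change of -0.25. The called gene was *Crtap*, a subunit of the prolyl 3-hydroxylase complex, which had 207, 244, 223 and 226 TPM in wild-type libraries, against 114, 120.3, 148 and 169.9 TPM in null libraries. Its log2 fold change was -0.71 ± 0.14 (SE; limma, Benjamini-Hochberg adjusted p = 0.0158, lower in 4 of 4). With *Mir140*-null replicates 3 and 4 alone it was -0.50 (limma adjusted p = 0.0622). The list's median covers all 8 libraries, including the 2 that stood apart. *P3h3* had 47.1 and 64.6 TPM in *Mir140*-null replicates 1 and 2, and 80.2 and 84.2 TPM in replicates 3 and 4. *Ppib* had 242 and 287 TPM, and then 359 and 355 TPM. Their wild-type means were 85.7 and 342 TPM. *P3h4* was lower in all 4 null libraries (123 to 175 TPM) than in any wild-type library (199 to 221 TPM). *P4ha3*, the remaining alpha subunit, had 9.48 ± 0.901 TPM in wild-type libraries against 9.34 ± 0.877 TPM in null libraries.

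Of 16 folding and export factors of the endoplasmic reticulum, the compartment of 8 of the 10 enzymes, 4 were called lower and 0 higher (limma; 1 at an unadjusted p under 0.05), with a median of -0.10. All 4 are general chaperones or a disulfide isomerase, and all 4 null libraries were below all wild-type libraries for each. *Calr* (calreticulin) fell from 1101 ± 153 to 595 ± 37.4 TPM (log2 fold change -0.88 ± 0.12, limma adjusted p = 0.00651) and *Hsp90b1* (GRP94) from 4587 ± 621 to 2538 ± 137 TPM (-0.84 ± 0.12, adjusted p = 0.00678). *Hspa5* (BiP) fell from 4322 ± 299 to 2956 ± 82.6 TPM (-0.55 ± 0.08, limma adjusted p = 0.00862), and *Pdia4* from 124 ± 19.3 to 81.9 ± 4.70 TPM (-0.58 ± 0.12, adjusted p = 0.0205). *Pdia4* was not called without wild-type replicate 3 or 4 or *Mir140*-null replicate 2 (limma adjusted p = 0.0511 to 0.0603). With *Mir140*-null replicates 3 and 4 alone the log2 fold changes were -0.94 for *Calr*, -0.91 for *Hsp90b1*, -0.56 for *Hspa5* and -0.65 for *Pdia4*, the last not called (limma adjusted p = 0.0768).

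Among 12 other genes of extracellular crosslinking or of lysyl oxidase activation, 2 were called higher and 0 lower (limma; 0 also at an unadjusted p under 0.05), with a median of -0.02. *Pcolce2*, an enhancer of procollagen C-proteinase, rose from 45.1 ± 4.30 to 77.4 ± 13.5 TPM (log2 fold change 0.75 ± 0.14, limma adjusted p = 0.0137). *Tll1*, a protease that processes procollagen and lysyl oxidase, rose from 1.68 ± 0.404 to 4.32 ± 1.65 TPM (0.95 ± 0.22, limma adjusted p = 0.0252). All 4 null libraries were above all wild-type libraries for both. *Tll1* was not called, leaving 1 gene higher, without wild-type replicate 1, 2 or 3 or *Mir140*-null replicate 2 (limma adjusted p = 0.0522 to 0.0691), and with *Mir140*-null replicates 3 and 4 alone the log2 fold change was 0.68 for *Tll1* (limma adjusted p = 0.0774) and 0.57 for *Pcolce2* (adjusted p = 0.0579).

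Of the 18 collagen chains that these enzymes modify, 3 were called higher (10.5% of all genes tested were), 3 lower (6.40% of all genes) and 12 neither, with a median log2 fold change of -0.49. With *Mir140*-null replicates 3 and 4 alone this median lay between the values of *Col9a2* (-0.12) and *Col3a1* (-0.06). The 3 chains of type VI collagen were higher: *Col6a3* (0.94 ± 0.15, limma adjusted p = 0.00882), *Col6a2* (0.72 ± 0.13, adjusted p = 0.0139) and *Col6a1* (0.46 ± 0.13, adjusted p = 0.0490). *Col9a3* (-0.48 ± 0.11, limma adjusted p = 0.0266), *Col9a1* (-0.43 ± 0.12, adjusted p = 0.0467) and *Col11a1* (-0.50 ± 0.14, adjusted p = 0.0469) were lower, all 6 without overlap of the groups. *Col6a1* was called in 1 of the 8 fits with a library left out (without *Mir140*-null replicate 3; adjusted p = 0.0506 to 0.104 in the other 7), and *Col9a1* and *Col11a1* in 1 of 8 (without *Mir140*-null replicate 4; limma adjusted p = 0.0596 to 0.111 in the others). *Col9a3* was not called without wild-type replicate 1, 3 or 4 (limma adjusted p = 0.0560 to 0.0745). Chains called lower thus numbered 0 without wild-type replicate 1, 3 or 4 (limma; 6, 5 and 5 at an unadjusted p under 0.05) and 1 without wild-type replicate 2 or *Mir140*-null replicate 1 or 2. With *Mir140*-null replicates 3 and 4 alone, 0 chains were called in either direction (limma; 2 higher and 5 lower at an unadjusted p under 0.05). The 6 log2 fold changes were then 0.91 for *Col6a3*, 0.70 for *Col6a2*, 0.41 for *Col6a1*, -0.47 for *Col9a3*, -0.41 for *Col9a1* and -0.44 for *Col11a1*.

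The most abundant substrate, *Col2a1*, had 61630.1, 61442, 47894 and 60174 TPM in the wild-type replicates, against 34418, 48361, 35122 and 47756 TPM in the null replicates. Its log2 fold change of -0.49 ± 0.16 was not called (limma adjusted p = 0.0695), and the groups overlapped through wild-type replicate 3. It was called lower among genes with a mean of at least 5 TPM (limma adjusted p = 0.0416), and no difference was left after quantile normalization, which gives the most abundant gene of every library the same value. *Col9a2* (0.02), *Col11a2* (-0.10), *Col27a1* (-0.11) and *Col10a1* (-0.50), the last a hypertrophic chain, were not called either. With each library left out in turn, *Col11a2* ranged from -0.27 to 0.00, *Col27a1* from -0.19 to 0.00, and *Col10a1* from -0.97 (without wild-type replicate 1) to -0.08 (without wild-type replicate 2). Most fibrillar and associated chains of connective tissue were lowest in the 2 null libraries that stood apart. Of these chains, *Col1a1*, *Col1a2* and *Col3a1* are also among the fibroblast markers that set those libraries apart. *Col1a1* had 47.8 and 50.1 TPM in *Mir140*-null replicates 1 and 2, 1326 and 898 TPM in replicates 3 and 4, and 793 to 1544 TPM in wild-type. The log2 fold changes of *Col1a1* (-2.26), *Col3a1* (-1.82), *Col5a2* (-1.32), *Col14a1* (-1.31), *Col12a1* (-0.93), *Col1a2* (-0.76) and *Col5a1* (-0.42) were not called. With *Mir140*-null replicates 3 and 4 alone they were -0.03, -0.06, 0.04, 0.05, -0.34, 0.13 and 0.15 in the same order. *Col12a1* was lower in all 4 null libraries than in any wild-type library, replicates 3 and 4 (183 and 181 TPM) included, and was called without *Mir140*-null replicate 3 (-1.12, limma adjusted p = 0.0418) or 4 (-1.12, adjusted p = 0.0482). Among the 10 enzymes, *Loxl2* was the one whose value moved by more than the spread between replicates in that comparison.

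**Figure D5:**
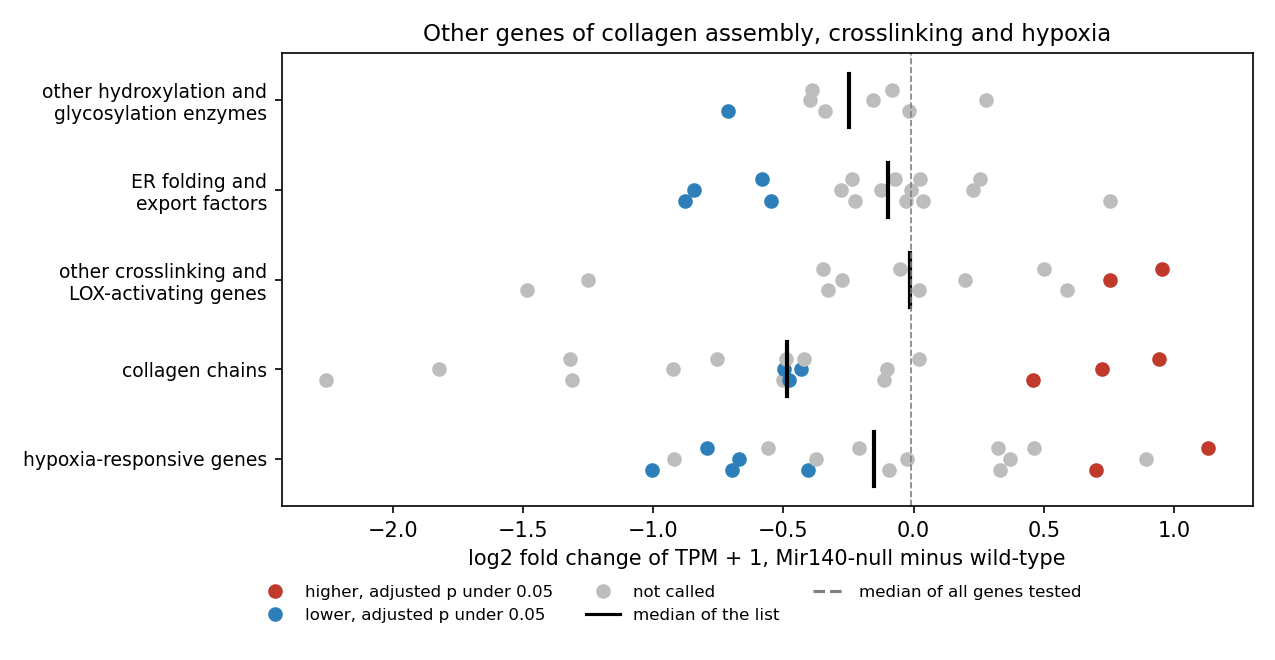
Log2 fold change of TPM + 1 (horizontal axis, Mir140-null minus wild-type) of each gene of 5 lists: red, called higher; blue, called lower; grey, not called; black bars, median of each list; dashed line, median of all genes tested. The medians over all 8 libraries were -0.25, -0.10, -0.02, -0.49 and -0.15 from top to bottom.

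Several of the enzymes, among them *Plod2*, *P4ha1*, *P4ha2*, *Lox* and *Loxl2*, are known to respond to hypoxia, so 18 other hypoxia-responsive genes were read beside them. Of these, 2 were called higher (10.5% of all genes tested were) and 5 lower (6.40% of all genes), with a median log2 fold change of -0.15. *Pfkfb3* (-0.70 ± 0.12, limma adjusted p = 0.0106) and *Bnip3* (-0.79 ± 0.16, adjusted p = 0.0167) were lower in all 8 fits with a library left out. *Ldha* (-0.67 ± 0.15, limma adjusted p = 0.0251), *Pdk1* (-1.01 ± 0.28, adjusted p = 0.0415) and *Mif* (-0.41 ± 0.11, adjusted p = 0.0413) were lower and *Hk2* (0.70 ± 0.17, adjusted p = 0.0320) and *Car9* (1.13 ± 0.30, adjusted p = 0.0379) higher. These 5 were not called in 5 to 7 of the 8 fits with a library left out (limma adjusted p = 0.0547 to 0.105). *Ldha* was not called without wild-type replicate 2, 3 or 4, *Pdk1* without any wild-type replicate, *Hk2* without wild-type replicate 1, 3 or 4, and each of the 3 also without *Mir140*-null replicate 1 or 2. *Car9* was called only without wild-type replicate 4 and *Mif* only without *Mir140*-null replicate 3. Genes called lower numbered 3 without wild-type replicate 1 and 2 without wild-type replicate 2, 3 or 4 or *Mir140*-null replicate 1 or 2. Genes called higher numbered 0 without wild-type replicate 1 or 3 or *Mir140*-null replicate 1 or 2 (limma; 5, 5, 6 and 5 at an unadjusted p under 0.05) and 1 without any other library. *Car9* overlapped between genotypes through wild-type replicate 4, and the groups of the other 6 did not. With *Mir140*-null replicates 3 and 4 alone, *Pfkfb3* was the 1 gene called (-0.77, limma adjusted p = 0.0317). The values were then -0.60 for *Bnip3*, -0.42 for *Ldha*, -0.52 for *Pdk1*, -0.28 for *Mif*, 0.52 for *Hk2* and 1.06 for *Car9*.

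Markers of cell types were read beside the enzymes, and their part in the differences was not tested. Over all genes tested, 10.5% were called higher and 6.40% lower. The 9 chondrocyte markers summed to 70778, 70956, 56449 and 69542 TPM in the wild-type replicates, against 41898, 57268, 42776 and 57317 TPM in the null replicates, led by *Col2a1*. Of these, 1 was called higher and 2 lower (*Col9a1* and *Hapln1*). The higher gene was *Acan*, with means of 552 TPM in wild-type and 1010 TPM in null libraries, opposite in direction to the sum. Hypertrophic markers (5 genes, led by *Spp1* at 146 TPM) had mean sums of 252 TPM for wild-type libraries and 232 TPM for null libraries. Of them 1 was called lower, *Panx3*, with means of 8.08 TPM in wild-type and 3.52 TPM in null libraries. Of the 7 fibroblast markers, led by *Col1a2* (1118 TPM on average), 1 was called higher and 0 lower (limma, with 0 lower also at an unadjusted p under 0.05). The called gene was *Pdgfra*, with means of 16.5 TPM in wild-type and 34.2 TPM in null libraries, opposite in direction to the sum. Skeletal muscle (7 genes, led by *Tnnt3*), adipocyte (4, led by *Fabp4*), macrophage (6, led by *Cd68*), endothelial (5, led by *Pecam1*) and osteoblast markers (5, led by *Bglap*) had mean sums of 79.2, 46.3, 31.4, 12.3 and 8.18 TPM in the wild-type group, against 48.8, 46.6, 23.9, 12.6 and 6.35 TPM in the null group. *Mir140*-null replicates 1 and 2 were the lowest for endothelial (3.41 and 4.85 TPM, others 5.56 to 27.1 TPM), osteoblast (2.81 and 2.37 TPM, others 3.48 to 13.2 TPM) and macrophage markers (17.3 and 16.8 TPM, others 21.8 to 39.6 TPM), so these libraries stood apart in more than fibroblast markers. The skeletal muscle sum was lower in all 4 null libraries (33.7, 59.8, 58.7 and 43.2 TPM) than in any wild-type library (70.5 to 86.3 TPM). Of these 5 lists, 1 gene was called, a macrophage marker that was lower. No marker of these lists was at 0 in all 8 libraries, and 8 were below 0.5 TPM in all of them: *Dmp1*, *Ckm*, *Myh3*, *Myh8*, *Adgre1*, *C1qa*, *Adipoq* and *Cidec*.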

How the data were processed

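For all 8 libraries, the values used are the authors' TPM, summed by Ensembl gene. Per the study's methods, reads of stranded mRNA libraries were mapped to the mm10 transcriptome with Salmon; the submitters' processing notes also name FastQC 0.11.7 and DESeq2, and the Salmon version is not given in the sources used here. The study's methods give a minimum read number for all samples, and the exact depth of each library was not analysed here. Libraries were grouped by the genotype in their labels. No pair of libraries was identical.

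Identifiers on several lines were counted once and named with GENCODE M21, which holds 99.8% of them. Tests took genes at or above 0.5 TPM in 4 or more libraries and used limma 3.58.1 (R 4.3.3) on log2(TPM + 1), with a mean-variance trend and genotype as the only term, two-sided, and adjusted by the Benjamini-Hochberg method over all 17177 genes. The pseudocount of 1 understates fold changes of low genes. A count model, as in the study, does not apply to TPM. Python 3.11.15, NumPy 2.4.6, pandas 2.3.3 and matplotlib 3.10.9 did the rest. The fit was tested on simulated data.

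The 10 enzymes and all gene lists were chosen with earlier results of these data known. Named genes were the 10 enzymes, called genes of the 5 pathway lists, all listed collagen chains, the 3 genes most like *Plod1* and *Plod2*, and of each marker list the most abundant gene and any at 0. Those below 0.5 TPM and uncalled genes given for comparison (*P4ha3*, *Loxl4*, *P3h3*, *P3h4*, *Ppib*) were named outside this rule after their values were seen. So were the called markers *Pdgfra*, *Acan*, *Hapln1* and *Panx3*, and also *Mir140* and *Wwp2*. Alternatives were a pseudocount of 0.1, no filter, a mean of at least 5 TPM, median-ratio, quantile and nuclear protein-coding scaling, a replicate block, 1 factor of unwanted variation, quality weights per sample, and omission of each library. Proteins were not analysed here.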

Additional observations from a re-analysis of the deposited data

Results flagged for a closer look

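Each enzyme, each collagen chain and each other called gene of the pathway lists was examined in each group of 4 libraries for a library far from the other 3, by Dixon's rule on the gap to its nearest neighbour as a share of the group's range. Chance marks about 1 in 20 groups, and 7 of the 84 groups examined were marked. *P4hb* was 993 TPM in wild-type replicate 3, against 1098 to 1111 TPM in the other 3. The same library was low for *Col2a1* (47890.0 TPM, others 60170.0 to 61630.0 TPM), *Col9a2* (3016 TPM, others 3360 to 3420 TPM) and *Col11a2* (4746 TPM, others 5685 to 5760 TPM). *Hspa5* was 2834 TPM in *Mir140*-null replicate 3, against 2980 to 3010 TPM in the others. *Car9* was 5.66 TPM in wild-type replicate 4, against 1.53 to 2.16 TPM, and *Pfkfb3* 113 TPM in *Mir140*-null replicate 2, against 85.3 to 90.0 TPM.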

How the results depend on the processing

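Of the recomputed log2 fold changes of the 10 enzymes, 174 moved by less than the spread between replicates. The 6 exceptions were *Plod1*, *Plod3*, *P4ha1*, *Colgalt1* and *Lox* after quantile normalization (1.19, 0.50, -0.27, 0.01 and 0.60) and *Loxl2* with *Mir140*-null replicates 3 and 4 alone (-0.23). No scaling reversed a called enzyme or moved the median of all genes by over 0.1. For the other listed genes, 445 values kept their direction and their side of the threshold, 111 fell short of it and 10 newly passed it.

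Median-ratio scaling called 2 enzymes lower. Quantile normalization called 3 enzymes and 1 collagen chain lower. Without a filter, 977 genes were called higher and 539 lower, with 0 enzymes lower, 1 of the other hydroxylation, folding and crosslinking genes higher, 0 collagen chains lower and 0 hypoxia genes higher (limma; 4 and 5 at an unadjusted p under 0.05) and 2 hypoxia genes lower. A mean of at least 5 TPM gave 605 lower genes and 1 other assembly gene higher, and tests fewer genes. With 1 factor of unwanted variation, 2016 genes, 2 enzymes, 10 other assembly genes and 9 collagen chains were lower and 5 hypoxia genes higher. *Mir140*-null replicates 3 and 4 alone, chosen after seeing the data and with fewer samples, gave 386 genes higher and 234 lower, 0 enzymes lower, 0 other assembly genes higher and 3 lower, 0 collagen chains either way, and 0 hypoxia genes higher and 1 lower. There *Col9a2*, *Col1a2*, *Col5a1*, *Col5a2* and *Col14a1* changed sign (-0.123, 0.13, 0.15, 0.0424 and 0.0455), and *Col9a2* also after median-ratio scaling (-0.0345). The cause of these changes was not tested.

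With each library left out, 755 to 1551 genes were higher and 337 to 1251 lower, 3 enzymes higher and 0 to 1 lower, 1 to 3 other assembly genes higher and 4 to 6 lower, 2 to 3 collagen chains higher and 0 to 4 lower, and 0 to 1 hypoxia genes higher and 2 to 6 lower. *Col9a2* ranged from -0.0869 to 0.123.

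With replicate number as a block, 671 genes were higher and 454 lower. Of the enzymes 2 were higher and 0 lower, of the other assembly genes 1 and 3, of the collagen chains 1 and 0 (5 lower at an unadjusted p under 0.05), and of the hypoxia genes 1 and 2. *Hspa5* and *Pdia4* were then not called (limma adjusted p = 0.0513 and 0.0673). Over all genes tested, libraries of the same number did not deviate together: correlations between deviations lay between -0.0845 and 0.0723 over all 16 pairs. Such correlations cannot exclude a pairing that shows in only some genes.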
